A study of Mus musculus with 140 samples.

Results

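Shank1, Shank2, Shank3, Dlgap1, Dlgap2, Dlgap3, Dlgap4 and Dlg4 encode the layered scaffold that lies under the receptors of excitatory synapses. Clusters on these 8 genes were taken from the eCLIP cluster lists of 70 immunoprecipitated (IP) libraries of mouse brain, as the clusters whose midpoint lay inside the gene on its own strand. The 8 genes, of 31172 genes that held a cluster, carried 33601 of 13239113 listed clusters, and 10924 of 3579282 enriched clusters, meaning clusters with a −log10 p of at least 3 (p of 0.001 or less) for IP over input reads.

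R6/2 mice, a model of Huntington's disease that carries a transgene of human HTT exon 1 with an expanded CAG repeat under the human HTT promoter, were set against non-transgenic (NT) mice of the matching cohort, all at 3 months of age. Striatum and cortex of 4 males and 4 females per genotype were profiled by m6A eCLIP, which crosslinks an antibody to N6-methyladenosine on poly(A)-selected RNA, and by TDP-43 eCLIP, which recovers RNA crosslinked to that RNA-binding protein in tissue. In a separate experiment, male C57Bl/6J mice dosed at 5 weeks with 500 µg of an antisense oligonucleotide (ASO) to TDP-43, by bolus into the cerebral ventricles, were compared with mice given PBS, with 3 m6A libraries per treatment made 2 weeks after dosing. The labels call the tissue of these 6 libraries cortex while their treatment text names striatum. Bulk tissue was used throughout, so fewer cells of a type and less RNA or methylation per cell cannot be told apart, and transcript levels were not analysed here.

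Dlg4 encodes PSD-95, which anchors glutamate receptors at the membrane. The Dlgap proteins (SAPAPs) bind PSD-95 on one side and the Shank proteins on the other, and Shank proteins bind Homer and, through it, metabotropic glutamate receptors. Loss of SHANK3 causes Phelan-McDermid syndrome and is a cause of autism. In mice, Dlgap3 (SAPAP3) is abundant in the striatum and its loss leads to compulsive grooming. Methylation of adenosine in mRNA is placed mostly in long internal exons and near stop codons, in the sequence context DRACH, of which GGAC is the strongest form, and TDP-43 prefers RNA rich in UG.

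All 8 genes lie on the plus strand of mm10. Shank1 (chr7:44310253-44360572) held 2547 enriched clusters over the 70 libraries, Shank2 (chr7:144001928-144424494) 1540 and Shank3 (chr15:89499623-89560261) 1158. Dlgap1 (chr17:69969073-70821413) held 863, Dlgap2 (chr8:14095865-14847680) 814, Dlgap3 (chr4:127169204-127237022) 1549 and Dlgap4 (chr2:156613705-156764363) 1113, and Dlg4 (chr11:70016942-70047522) held 1340. These numbers depend on gene length as well as on level, and 43 listed clusters of Dlgap2 also lay in another gene.

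The sequences below are the 30 bases around the best-covered m6A position of each gene on its own strand, 5′ to 3′, read from the mm10 genome, with the core GGAC in capitals. They are shown because the counts that follow rest on clusters over such positions, and each was covered by an enriched m6A cluster in 32 of 32 R6/2 and NT libraries.

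Shank1, chr7:44357476-44357505, plus strand, 3′UTR in exon 25: tctccccaggcctgactgaggtccccaggt

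Shank2, chr7:144420996-144421025, plus strand, coding part of exon 23: aggagacgttcatGGACaatgagattgacg

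Shank3, chr15:89547951-89547980, plus strand, coding exon 21: gatcatactgcaGGACtctgcgccagaagt

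Dlgap1, chr17:70815379-70815408, plus strand, coding exon of other annotated isoforms: aaaaccctgcacaaacgctGGACagtctaa

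Dlgap2, chr8:14838218-14838247, plus strand, intron: tgatacaaagcaccatGGACtaccataggt

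Dlgap3, chr4:127195393-127195422, plus strand, coding exon 3: agctctgatgacaatttGGACagtgacagt

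Dlgap4, chr2:156701313-156701342, plus strand, coding exon 3: acggtgagggtggtgccttccgcagtggcc

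Dlg4, chr11:70044741-70044770, plus strand, 3′UTR in exon 20: ggcccttggtctGGACtgaatagcccaagc

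GGAC stood in 6 of these 8 stretches, and Shank1 and Dlgap4 had none within their 30 bases. For Dlgap3 the best-covered TDP-43 position lay 41 bases downstream of the m6A one in the same coding exon, and for Dlg4 both lay in the 3′UTR of exon 20. The corresponding TDP-43 stretches are shown for Shank3, Dlgap3 and Dlg4, with TGTGT in capitals, and only that of Shank3 held this motif among the 8 genes. Among the genes not shown, coverage was lowest for Dlgap2 (19 of 32 TDP-43 libraries) and Shank2 (27 of 32).

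Shank3, chr15:89559371-89559400, plus strand, 3′UTR in exon 22, covered in 30 of 32 TDP-43 libraries: gcttgcacagggtgcatgcatgggTGTGTg

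Dlgap3, chr4:127195434-127195463, plus strand, coding exon 3, covered in 32 of 32: tgggagacctcctggagagcctggtggccc

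Dlg4, chr11:70044911-70044940, plus strand, 3′UTR in exon 20, covered in 32 of 32: tctgggggggagctgggctcctggttccga

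A site was a stretch over which 4 or more of the 16 libraries of an assay and region had an enriched cluster, and motifs were searched on the transcript strand in 101 bases at its centre. GGAC was found in 31 of 53 striatal m6A sites of the 8 genes (58.5%), against 22307 of 40976 sites of all genes (54.4%). By gene it stood in 6 of 8 sites of Shank3, 2 of 8 of Dlgap3 and 2 of 2 of Dlg4. TGTGT was at the centre of none of the 53 m6A sites, against 12.4% over all genes, and of 11.3% of the striatal TDP-43 sites of the 8 genes, against 13.3% over all genes. A match is a description of the letters and not a measured binding or methylation site.

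The 8 genes carried their m6A in different parts of the transcript. In striatum, 92.8% of enriched clusters of Shank3, 83.2% of those of Shank2 and 73.8% of those of Dlgap3 were in coding sequence, whereas 92.9% of those of Dlg4 were in the 3′UTR. Over all genes 42.2% were coding and 44.6% in the 3′UTR. Shank1 (60.1% coding, 39.9% 3′UTR), Dlgap1 (59.1% and 35.4%) and Dlgap4 (53.0% and 43.3%) lay between these. Dlgap2 stood out by a share of 17.5% in introns, which included the site at chr8:14838034-14838404 covered in all 8 R6/2 and all 8 NT striatal libraries. TDP-43 clusters were placed differently, with 92.5% of those of Dlgap3 and 81.2% of those of Dlg4 in coding sequence in cortex, against 54.1% over all genes.

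m6A and TDP-43 sites met on these genes. In striatum 18 of 53 m6A sites (34%) overlapped a TDP-43 site and 24 of 80 TDP-43 sites (30%) an m6A site, against 23.0% and 24.7% over all genes with both. In cortex, where more TDP-43 sites were found, 34 of 52 m6A sites (65.4%) and 52 of 178 TDP-43 sites (29.2%) overlapped, against 31.7% and 23.4%. The 8 genes held more TDP-43 sites per gene than all genes with both. These numbered 178 on 8 genes, against 34680 on 5038 genes, in cortex, and 80 on 8, against 17622 on 3640, in striatum. The part of this in the overlap was not tested. Both m6A sites of Dlg4 overlapped a TDP-43 site in striatum, whereas for Shank3 this was 1 of 8 in striatum and 5 of 7 in cortex.

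Listed clusters per library ranged between 133211 and 260739 and enriched clusters between 4929 and 99049, with the lowest yields among the striatal TDP-43 libraries (4929 to 24430). The files hold no read counts, so sequencing depth is unknown and the number of enriched clusters is the only measure of yield. Counts per gene were scaled between libraries by median-ratio factors. In NT mice the region markers followed the labels, as 9 of 9 medium spiny neuron genes held more m6A clusters in striatum than in cortex (summed level 155 to 195, against 59.9 to 72.6) and 6 of 6 cortical excitatory neuron genes held fewer (31.2 to 52.3, against 84.7 to 101).

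In R6/2 striatum, Shank3 and Dlgap3 held fewer m6A clusters than in NT striatum, by about the same proportion in males and females, while the other 6 scaffold genes did not pass the test. Shank3 had between 15.5 and 21.6 normalised enriched clusters in R6/2 libraries (median 16.8), against 24.3 to 33.3 in NT libraries (median 26.6). These ranges did not overlap. The share of all genes with such a separation was not counted, so the separation is not read as a result of its own. The means were 17.7 ± 2.32 in R6/2 and 27.2 ± 2.91 in NT (SD, n = 8 each), a log2 change of -0.61 (SE 0.08, adjusted p = 2.65e-05, limma, Benjamini-Hochberg over 9734 genes). Dlgap3 had between 20.4 and 26.6 (median 22.7) in R6/2, against 26.5 to 37.6 (median 33.8) in NT. The groups met only at their edges, where R6/2 male 2 with 26.6 stood beside NT male 1 with 26.5. The Dlgap3 means were 23.2 ± 2.31 in R6/2 and 32.9 ± 3.31 in NT, a log2 change of -0.49 (SE 0.08, adjusted p = 0.000178). These 2 of 8 genes were lower where 5.82% of the 9734 tested genes were lower (567 genes) and 3.81% higher (371 genes), or 9.64% in either direction, and the median over all genes was 0.02.

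Both genes passed the test in each sex alone. Shank3 changed by -0.63 in males (adjusted p = 0.0117) and -0.58 in females, and Dlgap3 by -0.50 in males (adjusted p = 0.0450) and -0.48 in females (adjusted p = 0.0144 for both genes, 4 against 4). The other Shank genes, both scaffolds that bind Homer and Dlgap proteins as Shank3 does, were not called in striatum. Shank1 averaged 26.5 ± 3.70 in R6/2 and 27.5 ± 4.35 in NT (log2 change -0.05, adjusted p = 0.816), and Shank2 averaged 26.6 ± 2.60 and 25.2 ± 2.68 (0.08, adjusted p = 0.604). Among the Dlgap genes, Dlgap2 had 17.2 ± 2.61 in R6/2 and 20.5 ± 3.06 in NT (-0.25, adjusted p = 0.119). Without R6/2 female 4 this value was -0.30 with an adjusted p of 0.0434. Dlgap1 (8.43 ± 2.67 in R6/2, 7.43 ± 1.39 in NT), Dlgap4 (20.2 ± 1.78 in R6/2, 20.8 ± 2.59 in NT) and Dlg4 (5.71 ± 1.96 in R6/2, 6.60 ± 1.25 in NT) had adjusted p between 0.390 and 0.839.

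**Figure D1:**
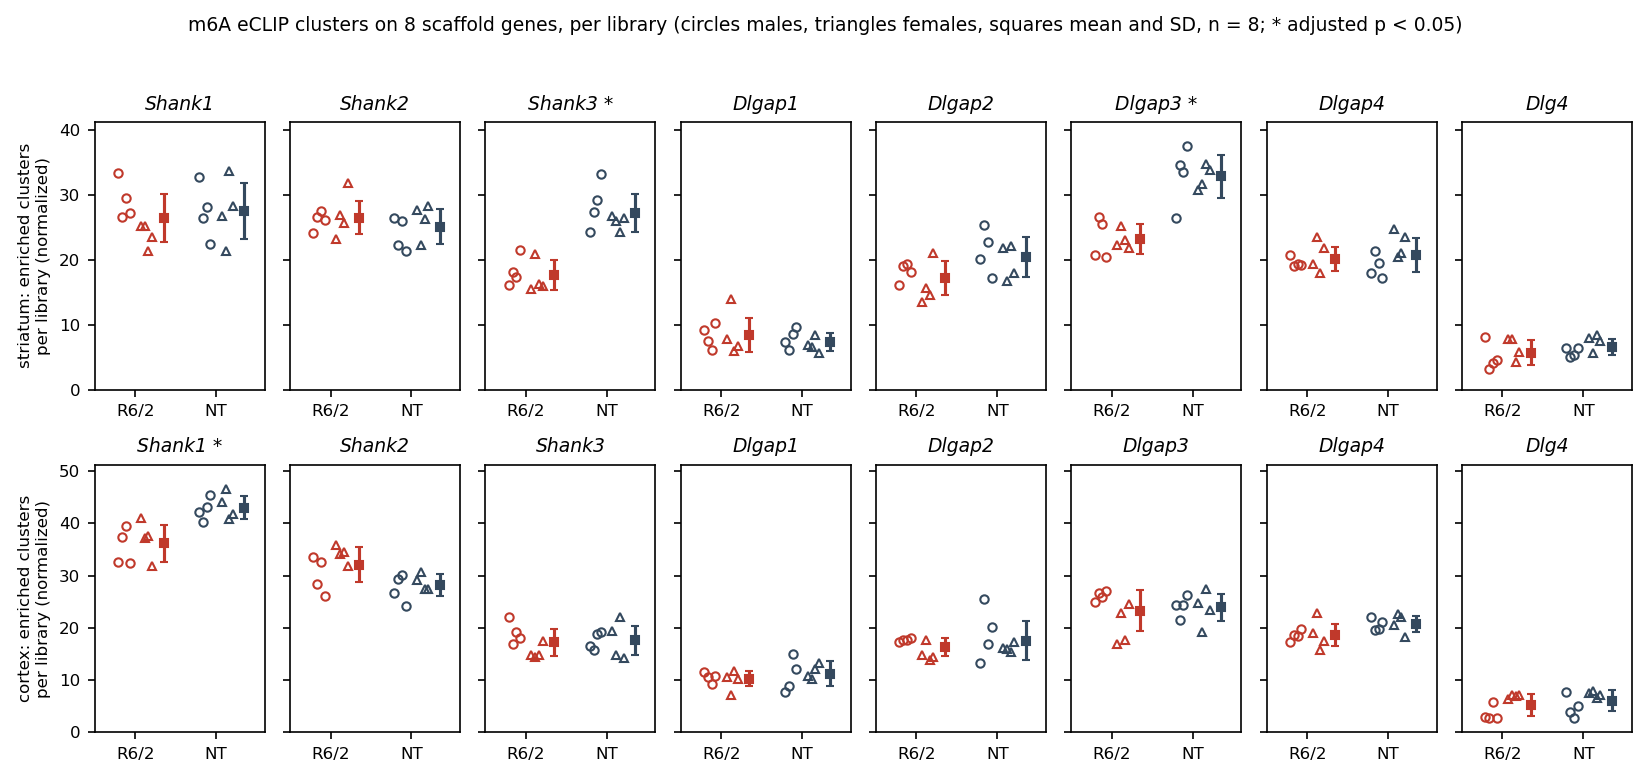
Normalised number of enriched m6A clusters (vertical axis) in each library, striatum above and cortex below, for the 8 genes, with R6/2 left of NT, circles for males, triangles for females and squares for mean and SD (n = 8). In striatum Shank3 ranges from 15.5 to 21.6 in R6/2, against 24.3 to 33.3 in NT. In cortex Shank1 is lower in R6/2 (31.8 to 41.1, against 40.2 to 46.6 in NT).

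Genes that mark medium spiny neurons, the main neurons of the striatum, moved in the same comparison: 8 of 9 held fewer m6A clusters in R6/2 striatum, with a summed level of 108 to 125 in R6/2 libraries, against 166 to 213 in NT libraries, and a median log2 change of -0.60. The cortical excitatory list had 0 of its genes called by limma, with 38.7 to 56.6 in R6/2 and 33.6 to 56.3 in NT, and 1 astrocyte gene was lower (summed level 68.1 to 73.7 in R6/2, against 76.9 to 87.6 in NT). The part of these shifts in the Shank3 and Dlgap3 values was not tested.

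The lower numbers of Shank3 and Dlgap3 went with longer clusters. The mean length of an enriched Shank3 cluster was 71.6 ± 11.4 bases in R6/2 striatum and 53.1 ± 4.46 bases in NT striatum (log2 difference 0.43, SE 0.09, adjusted p = 0.0307, limma over 8937 genes), and that of Dlgap3 was 45.1 ± 5.99 and 35.2 ± 2.87 bases (0.36, SE 0.08, adjusted p = 0.0403). Longer clusters were called for 1.11% of genes and shorter ones for 0.134%, and no other of the 8 genes was called. The total length covered fell less than the number did: Shank3 clusters covered 1272 ± 102 bases in R6/2 and 1415 ± 128 bases in NT (-0.19, SE 0.05, adjusted p = 0.0231), and Dlgap3 clusters 1058 ± 94.1 and 1135 ± 89.9 bases (-0.14, SE 0.04, adjusted p = 0.0472). Of 497 genes with fewer clusters that had a length in every library, 481 had longer ones, and the correlation between change in number and change in length across the 8937 genes was -0.716, which is across genes that are not independent replicates. The length comparison was added after the data had been seen. Mean length was covered bases divided by the number of clusters, so number and length are tied by construction. The length calls and the correlation are therefore no separate evidence for the lower numbers.

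**Figure D2:**
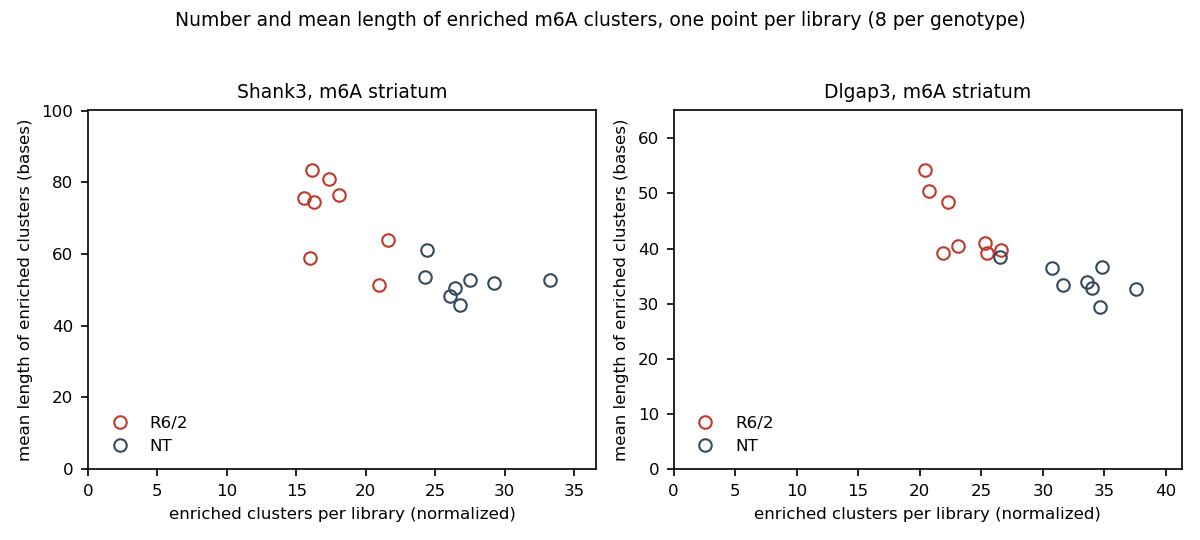
Mean length of enriched m6A clusters in bases (vertical axis) against their normalised number (horizontal axis) in each striatal library, for Shank3 and Dlgap3, with R6/2 and NT libraries in 2 colours. R6/2 libraries sit at fewer and longer clusters, with mean lengths of 71.6 bases for Shank3 and 45.1 bases for Dlgap3, against 53.1 and 35.2 bases in NT. Mean length is covered bases divided by the number of clusters, so the axes are tied.

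Most of the Shank3 difference was in coding exon 21, the long exon that holds most of its m6A. R6/2 libraries had 11.4 ± 2.07 enriched clusters there (9 to 15, unscaled), against 17.6 ± 2.33 (14 to 21) in NT libraries, and these covered 934 and 1011 bases. The coding part of exon 22 had 3.50 in R6/2 and 4.12 in NT, and the 3′UTR had 1.50 in R6/2 and 1.75 in NT. For Dlgap3 the 3′UTR in exon 12 had 5.00 ± 1.69 (2 to 8) in R6/2 and 9.12 ± 2.47 (4 to 12) in NT, covering 248 and 287 bases. Coding exon 3 of Dlgap3 had 17.1 ± 3.09 in R6/2 and 20.9 ± 2.30 in NT, over 718 and 745 bases. Clusters of Shank3 outside its reference transcript numbered 1.00 ± 0.756 in R6/2 and 2.25 ± 1.04 in NT. In cortex these exons had 12.0 clusters in R6/2 and 10 in NT for exon 21 of Shank3, 16.1 in R6/2 and 14.9 in NT for exon 3 of Dlgap3, and 6.88 in R6/2 and 6.12 in NT for the 3′UTR of Dlgap3. These counts by exon are descriptions of where the called genes differed and were given no test of their own.

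**Figure D3:**
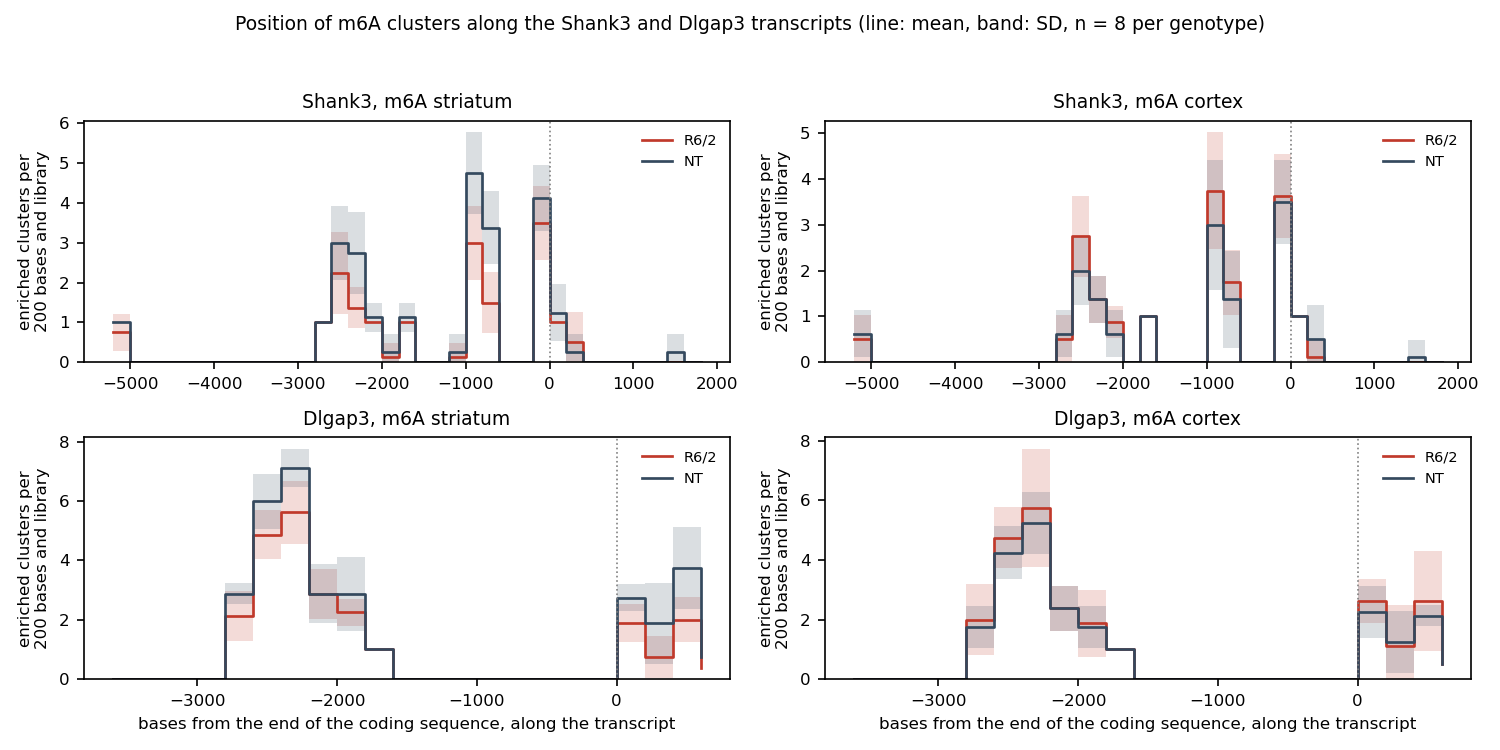
Mean number of enriched m6A clusters per 200 bases and library (vertical axis) along the Shank3 and Dlgap3 transcripts, with distance from the end of the coding sequence in bases (horizontal axis), for striatum on the left and cortex on the right, bands being the SD over 8 libraries per genotype. In striatum the R6/2 line runs below the NT line over the long coding exon of Shank3 (11.4 against 17.6 clusters in exon 21), and over the 3′UTR of Dlgap3 (5.00 against 9.12).

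No single m6A site on these genes carried a called difference. The exon 21 site of Shank3 at chr15:89547800-89548069 that spans the sequence shown above was covered in 8 of 8 R6/2 and 8 of 8 NT striatal libraries. Its log2 enrichment over input averaged 2.20 in R6/2 and 2.49 in NT (difference -0.29, SE 0.15, adjusted p = 0.588). Dlgap3 in exon 3, at chr4:127194812-127195520, had 2.90 in R6/2 and 2.97 in NT (-0.07), also in 8 of 8 libraries of each genotype. Singled out after its values were seen, the site in exon 4 of Dlgap3 at chr4:127199667-127199742 had 1.47 in R6/2 and 2.04 in NT (-0.56, SE 0.17, adjusted p = 0.265). Another site singled out in this way, at chr15:89499647-89499677 at the start of Shank3, was covered in 0 R6/2 and 4 NT libraries (exact permutation within sex, two-sided, p = 0.0286, adjusted p = 1). Of 35 striatal member sites with a listed cluster in every library, 18 were lower in R6/2, the median difference was -0.03, and limma called 0 of them (5 at an unadjusted p under 0.05), where it called 0.214% of 28960 sites of all genes. By gene, 5 of 5 of these sites were lower for Dlgap3 (median -0.14), 4 of 6 for Shank3 (-0.14) and 5 of 5 for Dlgap2 (-0.18). For Shank1 and for Dlgap1 0 of 4 were lower. By presence, the exact test called 0 of 53 (2 at an unadjusted p under 0.05), as it called 0 of 40985 sites of all genes.

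Of the 2 tested m6A sites of Dlg4, 1 had a lower mean enrichment in R6/2 striatum (median difference of both -0.11). In R6/2 cortex 2 of 2 were lower, and limma called 0 in either region. A 3′UTR site at chr11:70044600-70044944 had a log2 enrichment of 1.50 in R6/2 and 1.78 in NT striatum (-0.28, SE 0.08, adjusted p = 0.238). Its difference in cortex was -0.26 (adjusted p = 0.270).

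In R6/2 cortex, Shank1 was the only one of the 8 genes whose m6A clusters were called. Shank1 had 31.8 to 41.1 clusters in R6/2 (median 37.3), against 40.2 to 46.6 in NT (median 42.7). The groups overlapped in 1 library each, R6/2 female 1 with 41.1 and NT male 2 with 40.2, and all 8 R6/2 libraries lay below the NT mean. The means were 36.2 ± 3.50 in R6/2 and 43 ± 2.25 in NT, a log2 change of -0.25 (SE 0.06, adjusted p = 0.0174), in a comparison in which 3.74% of 9071 genes were lower, 2.44% higher and 6.17% called either way. This call was lost when all listed clusters were counted (-0.19, adjusted p = 0.0780), in males alone (-0.26, adjusted p = 0.245) and in females alone (-0.23, adjusted p = 0.273), where 316 of 6544, 81 of 9398 and 85 of 9019 genes were called. By exon, Shank1 had 13.5 in R6/2 and 14.8 in NT in exon 24, 10.3 and 10.6 in the coding part of exon 25, and 14.1 and 15.9 in the 3′UTR.

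Shank3 averaged 17.2 ± 2.60 in R6/2 cortex and 17.6 ± 2.69 in NT cortex (-0.03, adjusted p = 0.902), and Dlgap3 averaged 23.3 ± 3.94 and 24.0 ± 2.59 (-0.05, adjusted p = 0.809). Shank2 had 32.1 ± 3.29 in R6/2 and 28.1 ± 2.10 in NT (0.19, adjusted p = 0.106). Dlgap1, Dlgap2, Dlgap4 and Dlg4 changed by -0.24 to -0.08 on the log2 scale, with adjusted p between 0.242 and 0.688. Medium spiny genes were lower in cortex as well (5 of 7, summed level 32.9 to 50.2 in R6/2, against 58.7 to 71.5 in NT), while the cortical excitatory list had 0 of its genes called (82.8 to 94.7 in R6/2, against 83.7 to 98.8 in NT). Across 40 member sites tested in cortex limma called 0 (3 at an unadjusted p under 0.05), where it called 0.0468% of 27783 sites of all genes.

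The genotype difference was then compared between regions in 1 model of all 32 m6A libraries. Striatal and cortical libraries may share mice, but the labels do not link them. They were treated as independent here and in the other comparisons of regions. For Shank3 the log2 change in striatum minus that in cortex was -0.57 (SE 0.13, adjusted p = 0.0281), a direction called for 0.183% of 9312 genes, with 0.0752% called in the other and 0.258% in either. For Dlgap3 it was -0.43 (SE 0.12, adjusted p = 0.153), so a difference between the regions was not called there, nor was it for Shank1 (0.21, adjusted p = 0.702).

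The regions themselves differed in NT mice. Shank3 had 25.2 ± 2.80 m6A clusters in striatum and 17.9 ± 2.70 in cortex (0.49, adjusted p = 0.000440), and Dlgap3 had 30.5 ± 3.12 and 24.4 ± 2.61 (0.32, adjusted p = 0.00743). Shank1 had 25.5 ± 4.05 in striatum and 43.8 ± 2.25 in cortex (-0.78, adjusted p = 4.91e-07), Shank2 had 23.2 ± 2.38 and 28.6 ± 2.14 (-0.30, adjusted p = 0.00543), and Dlgap1 had 6.87 ± 1.32 and 11.5 ± 2.41 (-0.69, adjusted p = 0.000711). So 2 of the 8 genes were higher and 3 lower in striatum, where 9.77% of 9272 genes were higher, 8.94% lower and 18.7% called either way. Dlgap2, Dlgap4 and Dlg4 were not called (adjusted p between 0.226 and 0.937). The NT libraries of this comparison are also those that R6/2 was set against.

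Over the 32 m6A libraries the gene whose cluster number ran most like that of Shank3 was Dlgap3 (Pearson r = 0.818 among 8828 genes), followed by Hpca (0.765), a neuronal calcium sensor, and Adcy5 (0.764), the main adenylyl cyclase of the striatum. For Dlgap3 the list was Shank3, Ryr1 (0.749) and Slc8a2 (0.729). Shank1 ran with Lingo1 (0.903), Sstr3 (0.889) and Gpr22 (0.888). The nearest gene was Kcnd3 for Shank2 (0.855), Ppm1e for Dlgap1 (0.783), Kcnq3 for Dlgap2 (0.790), Jdp2 for Dlgap4 (0.617) and Dnaja2 for Dlg4 (0.733). These correlations are descriptions over libraries that share 2 regions and 2 genotypes.

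A list of 45 other postsynaptic density genes gave the setting. In striatal m6A 8 of 44 tested were lower in R6/2 and 1 was higher, with a median of -0.15. Anks1b (-0.82), a postsynaptic adaptor, and Baiap2 (-0.58), which binds Shank proteins and actin regulators, were the lowest, followed by Homer1 (-0.53), the binding partner of Shank. The higher one was Tnik (0.35), a kinase. In cortex 6 of 43 were lower and 0 higher by limma, with Baiap2 (-0.63) and Homer1 (-0.46) lowest and a median of -0.09.

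**Figure D4:**
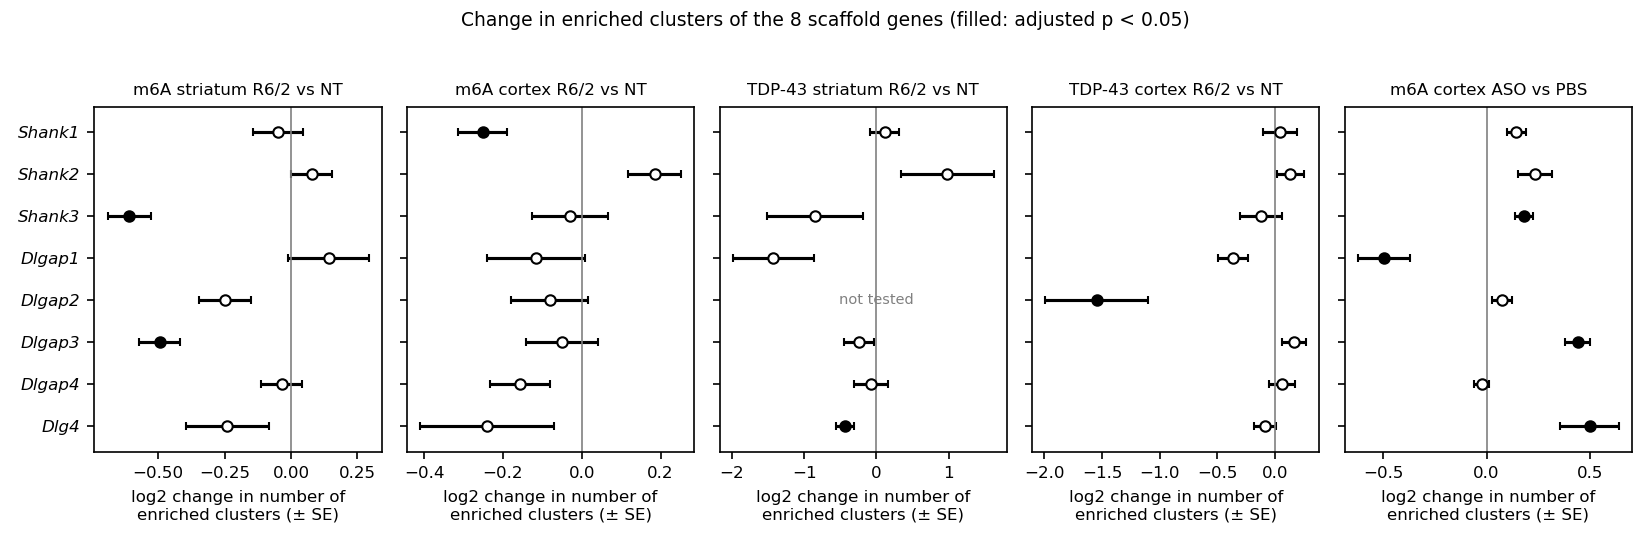
Log2 change in the number of enriched clusters (horizontal axis, points with SE bars) for the 8 genes, in 5 comparisons, R6/2 over NT in 4 panels and TDP-43 ASO over PBS in the last, filled points having an adjusted p under 0.05. Shank3 (-0.61) and Dlgap3 (-0.49) are filled in striatal m6A, while after the ASO Dlgap3 (0.44) is filled on the other side of 0.

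TDP-43 clusters on these genes were sparser and more variable in striatum. Dlg4 was the only 1 of 7 tested genes that was called, with 15.5 to 29.4 clusters in R6/2 (median 18.5), against 22.7 to 32.7 in NT (median 26.8). R6/2 male 1, at 29.4, lay inside the NT range and the other 7 R6/2 libraries lay between 15.5 and 20.8. The means were 19.8 ± 4.29 in R6/2 and 26.6 ± 3.51 in NT (-0.43, SE 0.13, adjusted p = 0.0271), in a comparison where 7.67% of 2333 genes were lower, 5.92% higher and 13.6% called either way. A count of 1 in 7 is near this share. With covered bases in place of the count, Dlg4 changed by -0.34 (limma, adjusted p = 0.0846). In 5 libraries, all R6/2, introns held 30% or more of the listed clusters (male 4 and females 1 to 4, 36.2% to 47.4%, against 16.1% to 25.7% in the other 11). Without them no R6/2 female was left, and Dlg4 changed by -0.14 (adjusted p = 0.644), a value that rests on the males. With the intronic share as a covariate Dlg4 changed by -0.24 (adjusted p = 0.359). The call was also lost in turn without R6/2 male 4, R6/2 female 1, R6/2 female 4, NT female 1, NT female 2 or NT female 3 (adjusted p between 0.0503 and 0.0628).

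Shank1 had 18.4 ± 4.20 TDP-43 clusters in R6/2 striatum and 17.3 ± 4.96 in NT striatum (0.11, adjusted p = 0.780), and Dlgap3 had 10.3 ± 2.28 and 12.5 ± 3.52 (-0.24, adjusted p = 0.512). Shank3, with 3.99 ± 3.05 in R6/2 and 7.17 ± 4.06 in NT, was not called (-0.85, SE 0.67, adjusted p = 0.480), nor was Dlgap1, with 2.40 ± 2.51 and 4.50 ± 1.32 (-1.43, SE 0.56, adjusted p = 0.107). For Shank3, Dlgap3 and Dlgap1 a call came up in 1 of 16 fits that left out a library. Without NT male 1, the library of lowest yield, Shank3 changed by -1.45 (adjusted p = 0.0441) and Dlgap3 by -0.43 (adjusted p = 0.0479), and without R6/2 female 4 Dlgap1 changed by -1.75 (adjusted p = 0.0373). Without the 5 more intronic R6/2 libraries only R6/2 males 1, 2 and 3 were left, so that fit rested on the males. NT male 1 was kept in it. The log2 changes were instead positive, at 0.98 for Shank3 (adjusted p = 0.503), 0.25 for Dlgap3 (adjusted p = 0.622) and 0.06 for Dlgap1 (adjusted p = 0.906). Shank2 had 3.68 ± 2.75 in R6/2 and 1.79 ± 1.59 in NT (0.98, adjusted p = 0.378), and Dlgap4 had 5.12 ± 1.24 and 5.61 ± 2.09 (-0.07, adjusted p = 0.889). Dlgap2, with 1.62 ± 0.746 in R6/2 and 0.874 ± 0.892 in NT, was below the minimum for a test. Medium spiny genes were lower here too (6 of 8, summed level 29.0 to 44.9 in R6/2, against 65.2 to 131 in NT), and their part in the Dlg4 value was not tested.

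**Figure D5:**
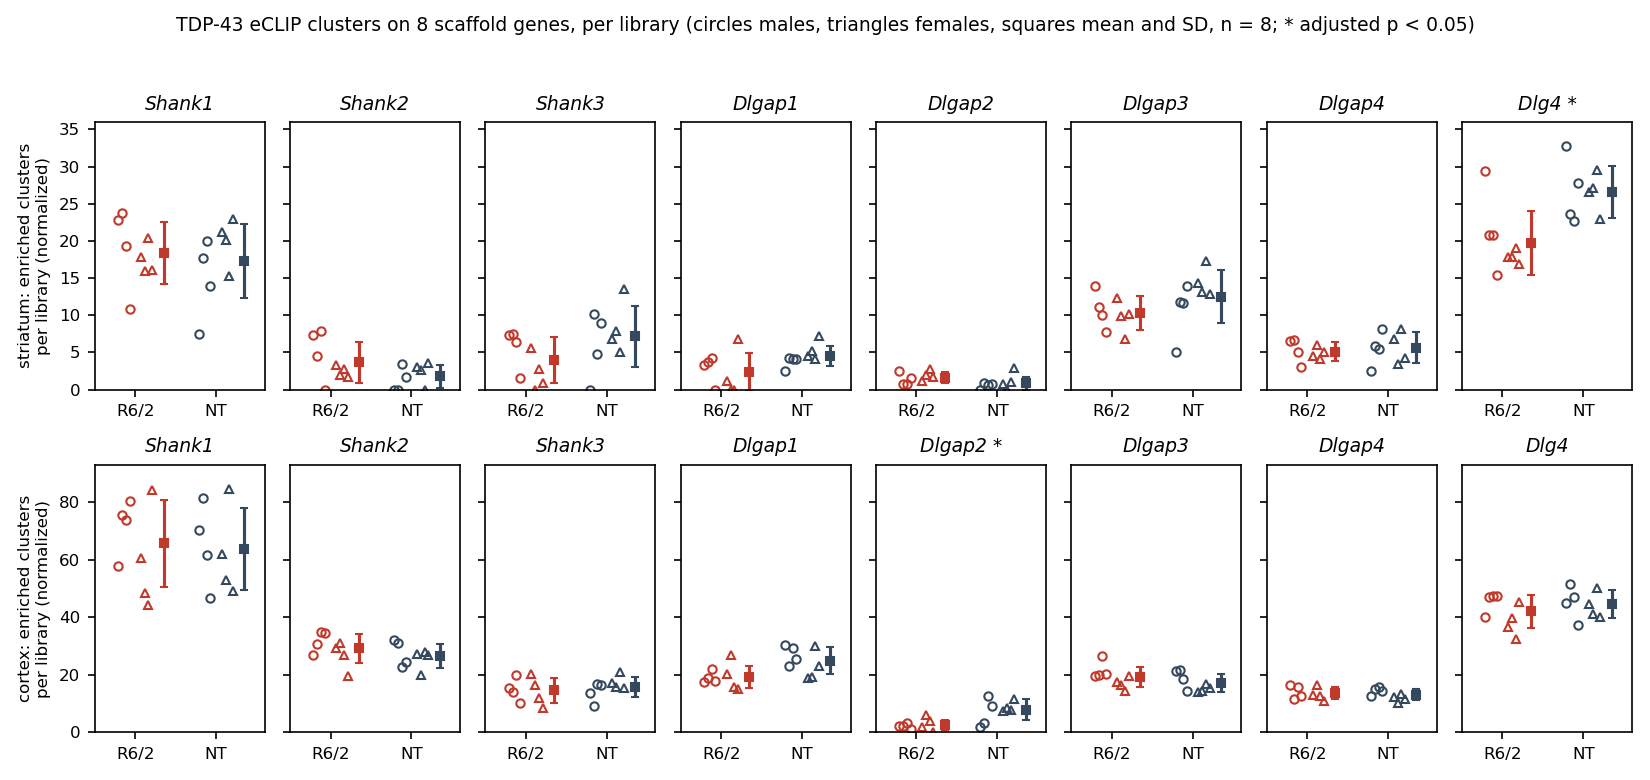
Normalised number of enriched TDP-43 clusters (vertical axis) in each library, striatum above and cortex below, for the 8 genes, with R6/2 left of NT, circles for males, triangles for females and squares for mean and SD (n = 8). The Dlg4 mean is lower in R6/2 striatum (19.8, against 26.6 in NT), with R6/2 male 1 at 29.4. The Dlgap2 mean is lower in R6/2 cortex (2.59, against 7.79 in NT). Both calls were lost under several alternatives.

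In cortex Dlgap2 had fewer TDP-43 clusters in R6/2, at a low level. R6/2 libraries held between 0 and 6.03 (median 2.21), against 1.95 to 12.7 (median 8.08) in NT libraries. Unscaled, the 8 R6/2 libraries had between 0 and 7 enriched clusters and the 8 NT libraries between 2 and 14, so the groups overlapped, although every R6/2 library lay below the NT mean. The means were 2.59 ± 1.83 in R6/2 and 7.79 ± 3.65 in NT (-1.55, SE 0.45, adjusted p = 0.0415), in a comparison where 5.64% of 3904 genes were lower, 1.46% higher and 7.1% called either way. The call was lost without any 1 of NT male 3, NT male 4, the 4 NT females, R6/2 males 1, 2 and 4 or R6/2 female 1 (adjusted p between 0.0597 and 0.0871), with intronic share as a covariate (-1.10, adjusted p = 0.323) and when covered bases replaced the count (-1.35, adjusted p = 0.166). With all listed clusters the value was 0.094 (adjusted p = 0.734). Medium spiny genes were lower in this comparison (3 of 3, summed level 1.18 to 5.27 in R6/2, against 9.76 to 17.3 in NT), and their part in the Dlgap2 value was not tested.

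Shank1 had a similar number of TDP-43 clusters in both genotypes in cortex, 65.6 ± 15 in R6/2 and 63.5 ± 14.2 in NT (0.04, adjusted p = 0.881). Its enrichment over input ran lower: 19 of 21 tested sites of Shank1 had a lower log2 enrichment in R6/2, with a median difference of -0.41, against 0.01 over all sites, although limma called 0 of them (4 at an unadjusted p under 0.05). Overlapping or neighbouring sites of 1 transcript are not independent. With the stricter minimum of p at 1e-10 or less, the count itself was lower in R6/2 (-0.44, adjusted p = 0.0273). A 3′UTR site at chr7:44359304-44359318, chosen after its values were seen, was covered in 0 R6/2 and 6 NT libraries (exact permutation within sex, two-sided, p = 0.00612, adjusted p = 0.901).

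The remaining genes in cortex were not called. Shank2 had 29.2 ± 4.94 TDP-43 clusters in R6/2 and 26.5 ± 4.08 in NT, Shank3 14.6 ± 4.26 and 15.7 ± 3.38, Dlgap1 19.3 ± 3.76 and 24.9 ± 4.64, Dlgap3 19.2 ± 3.57 and 17.1 ± 3.18, Dlgap4 13.7 ± 2.21 and 13.1 ± 1.87, and Dlg4 42.0 ± 5.64 and 44.6 ± 4.92. Adjusted p ranged between 0.104 for Dlgap1 (-0.36) and 0.794 for Dlgap4 (0.06), and without R6/2 female 2 Dlgap1 was called (-0.44, adjusted p = 0.0280). Over the 105 member sites tested in cortex, 67 were lower in R6/2 with a median of -0.12, and limma called 0 (11 at an unadjusted p under 0.05), where it called 0.211% of all sites. Of 59 tested in striatum it called 0 (6 at an unadjusted p under 0.05), where it called 1.14% of 12103 sites of all genes. In the model of both regions limma called 0 of the 8 genes for a regional difference in genotype effect on TDP-43 clusters (1 at an unadjusted p under 0.05), against 0.0658% of 3040 genes, the nearest being Dlgap2 (2.38, SE 0.61, adjusted p = 0.0793).

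NT striatum and cortex differed more in TDP-43 than in m6A clusters over all genes, with a median log2 difference of -0.64 in striatum over cortex and 42.5% of 3277 genes lower (8.97% higher, 51.4% either way). Of the 8 genes 5 were called, near that share. Over both genotypes the libraries held 4929 to 24430 enriched TDP-43 clusters in striatum and 15804 to 54932 in cortex. Region and yield cannot be told apart here. Shank2 stood furthest apart among the 8, with 2.52 ± 2.25 in striatum and 22.1 ± 2.96 in cortex (-3.52, adjusted p = 4.78e-05). Dlgap2 (1.23 in striatum, 6.57 in cortex, -2.17), Dlgap1 (6.36 and 20.8, -1.66), Shank1 (24.5 and 52.6, -1.13) and Dlgap4 (7.94 and 10.9, -0.51, adjusted p = 0.0466) were lower in striatum too. For Dlgap4 the call was lost with all listed clusters (-0.18, adjusted p = 0.120), quantile scaling (-0.18, adjusted p = 0.381) and the limits of the study (-0.18, adjusted p = 0.621). Dlg4 had 37.8 in striatum and 37.1 in cortex (0.02, adjusted p = 0.884), and like it Shank3 (-0.79, adjusted p = 0.206) and Dlgap3 (0.26, adjusted p = 0.251) were not called.

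Of the 45 postsynaptic density genes, TDP-43 clusters were lower for 8 and higher for 2 of 29 tested in R6/2 striatum (median -0.16), with Grm5 (-1.64), the metabotropic glutamate receptor coupled to Shank through Homer, and Baiap2 (-1.15) lowest and Tnik (1.23) and Camk2a (0.79), a synaptic kinase, highest. In cortex 7 of 38 were lower and 0 higher by limma (median -0.19), with the AMPA receptor subunit Gria3 (-2.10) and Homer1 (-0.89) lowest. The median over all genes was -0.05 in striatum and -0.09 in cortex. The R6/2 effect was also compared between males and females for both assays and regions, and limma called 0 genes in each (580 for m6A in striatum, 420 for m6A in cortex, 197 for TDP-43 in striatum and 220 for TDP-43 in cortex at an unadjusted p under 0.05), and none of the scaffold genes tested (7 for TDP-43 in striatum, 8 in the others) reached an unadjusted p under 0.05.

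In the TDP-43 knockdown, Tardbp, which encodes TDP-43, had 7, 8 and 9 enriched m6A clusters in ASO libraries, against 17, 18 and 25 in PBS libraries (-1.12, SE 0.14, adjusted p = 0.00371). Its transcript level was not analysed here. Within a treatment 99.2% to 99.3% of cluster intervals were identical between libraries, against 1.96% to 1.97% between treatments, as they would be if clusters had been drawn once per treatment and scored in each library. How clusters were drawn and the treatment cannot be told apart here, and the spread between libraries of a treatment leaves out the variation of cluster calling.

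With that limit, 4 of the 8 genes were called after the ASO, where 13.4% of 10149 genes were higher, 16.8% lower and 30.2% called either way. Dlgap3 rose, with 42.5, 43.1 and 43.9 normalised m6A clusters in ASO libraries, against 28.9, 32.8 and 33.5 in PBS libraries (0.44, SE 0.06, adjusted p = 0.00437). Shank3 had 26.3, 26.9 and 28.9 in ASO libraries, against 23.7, 24.1 and 24.4 in PBS libraries (0.18, SE 0.04, adjusted p = 0.0236). Dlg4 had 9.32, 9.46 and 12.8 in ASO libraries and 6.75, 6.90 and 8.13 in PBS libraries (0.50, SE 0.14, adjusted p = 0.0435). Dlgap1 fell to 15.8, 16.6 and 19.3 in ASO libraries, against 20.7, 25.1 and 28.0 in PBS libraries (-0.50, SE 0.13, adjusted p = 0.0311). Whether the 2 treatments overlapped is not read as a result. Cluster intervals were nearly identical within a treatment, and the share of all genes without overlap was not counted.

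Only Dlgap3 kept its call in all 6 fits that left out 1 library. The mean length and covered bases of its clusters were the same in all 3 ASO libraries (SD 0). Leaving out 1 of these is therefore no separate check of the Dlgap3 call. Dlg4 lost its call in all 6 fits (adjusted p between 0.0586 and 0.120). Shank3 lost its call in 4 (without PBS 1, PBS 2, PBS 3 or ASO 2, adjusted p between 0.0517 and 0.0794). Dlgap1 also lost its call in 4 (without PBS 1, PBS 3, ASO 2 or ASO 3, adjusted p between 0.0753 and 0.0837). When covered bases replaced the number of clusters, limma called 0 of the 8 genes and 266 of 10149 genes in all. Dlgap3 clusters covered 1284 bases in ASO libraries and 1244 ± 34.1 bases in PBS libraries (0.04, SE 0.04, adjusted p = 0.611). Their mean length was 31.3 bases in ASO and 37.3 bases in PBS libraries. Shank1 (24.9 ± 0.752 in ASO, 22.5 ± 1.03 in PBS, adjusted p = 0.0559) and Shank2 (23.1 ± 1.73 and 19.6 ± 1.75, adjusted p = 0.0803) were just outside the threshold, and Shank1 was called without PBS 2 (0.17, adjusted p = 0.0444). Dlgap2 (21.0 ± 0.346 in ASO, 20 ± 1.15 in PBS) and Dlgap4 (24.9 ± 0.973 in ASO, 25.3 ± 0.277 in PBS) had adjusted p of 0.286 and 0.660. Of 42 member sites tested by enrichment limma called 0 (6 at an unadjusted p under 0.05), where it called 0.079% of all sites.

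Among the other postsynaptic density genes 13 of 44 held more and 8 fewer m6A clusters after the ASO (median 0.12, against -0.02 over all genes). Nrgn (1.32), a calmodulin-binding protein of spines, and Grin2a (0.74), an NMDA receptor subunit, were highest, and Cttn (-0.70), an actin-binding protein, and Magi2 (-0.48), a scaffold, were lowest. Of the medium spiny genes 0 were lower and 1 was higher by limma, with a summed level of 91.1 to 92.0 in ASO libraries, against 87.7 to 94.8 in PBS libraries.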

How the data were processed

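Cluster lists of 70 IP libraries were used; the 70 input libraries entered only through the scores. The authors obtained the lists from the kit supplier's analysis (CLIPper, mm10, version not given in the sources used here). The deposited lists give for each cluster the −log10 p of IP against input reads. The deposited lists also give the log2 fold of IP over input. No reads are in them, so depth is unknown and yield is the number of clusters.

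Clusters were assigned to genes of GENCODE vM21 by midpoint and strand, and those with a −log10 p of at least 3 were counted. Counts were scaled by median-ratio factors, 0.5 was added, and log2 values of genes with at least 2 in 50% of the libraries were tested with limma 3.58.1 (R 4.3.3), with sex as a covariate in R6/2 and NT fits and Benjamini-Hochberg adjustment at 0.05. Each numbered library is a separate sample of its group in the labels. Sites were tested by presence (exact permutation within sex, smallest p 0.000408) and, where every library listed a cluster, by limma on log2 fold centred on library medians. With 3 against 3 the exact test cannot go below 0.1. The fits were tested on simulated data first. Python 3.11.15, numpy 2.4.6, pandas 2.3.3 and scipy 1.17.1 were used. Sequences came from the mm10 genome of RefSeq.

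Alternatives were a p of 1e-10 or less, the study's limits (log2 fold above 3 as well), all listed clusters, covered bases, other scalings and filters, each sex alone, the intronic share, left-out libraries and a replicate block. All 8 genes are named in every comparison, other postsynaptic genes by counts and the 2 highest and 2 lowest called, and the 3 genes most alike per gene. The 8 genes and the lists were chosen with earlier results of these data known. Same-numbered libraries of the 2 groups in a comparison were not paired in the data. Fits across regions had no term for the mouse, and pairing of the regions was not examined.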

Additional observations from a re-analysis of the deposited data

Results flagged for a closer look

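Of 64 groups of 8 libraries examined among the 8 genes, 3 held a library far from the rest, and chance gives about 1 in 20. For Dlg4 TDP-43 clusters in striatum, R6/2 male 1 had 29.4, against 15.5 to 20.8 in the other R6/2 libraries. For Dlgap2 TDP-43 clusters in striatum, NT female 4 had 2.86, against 0 to 1.02 in the other NT libraries. For Dlgap3 TDP-43 clusters in striatum, NT male 1, the library with the fewest enriched clusters (4929), had 5.04, against 11.7 to 17.4 in the other NT libraries. For Shank3 m6A clusters the log2 change of R6/2 over NT in striatum minus that in cortex was -0.57 (adjusted p = 0.0281, limma without a term for the mouse), so the genotype effect differed between the regions in this model.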

How the results depend on the processing

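Shank3 and Dlgap3 m6A in striatum stayed lower and past the threshold in every alternative in which they could be tested, with log2 changes between -0.80 and -0.19 for Shank3 and between -0.53 and -0.14 for Dlgap3. Leaving out 1 library gave -0.65 to -0.57 for Shank3 and -0.54 to -0.46 for Dlgap3.

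The number of the 8 genes called is given with the number over all genes. With p at 1e-10 or less it was 2 for m6A in cortex (1 as reported), with 633 of 6313 genes called in all, and 3 for TDP-43 in cortex (1 as reported), with 165 of 1254. The study's limits left 3 to 7 of the 8 genes to test. They gave 0 for m6A in striatum (4 tested, 3 of 2509 genes called), m6A in cortex (3 tested, 2 of 2462) and the ASO (3 tested, 3 of 2357). With so few calls over all genes, these m6A counts say nothing about the scaffold genes. They also gave 0 for TDP-43 in striatum (7 tested, 78 of 1624) and TDP-43 in cortex (7 tested, 106 of 2714). The call of Dlg4 in striatum was thus lost under these limits. Under them NT striatum against cortex gave 1 in m6A (61 of 2439) and 3 in TDP-43 (901 of 2354), against 5 as reported in each. With all listed clusters 0 were called for m6A in cortex (316 of 6544), 5 for TDP-43 in striatum (1289 of 6464) and 2 for TDP-43 in cortex (376 of 7088); the ASO could not be fitted this way, as the lists do not vary within a treatment. Covered bases gave 0 for TDP-43 in striatum (167 of 2333), TDP-43 in cortex (128 of 3904) and the ASO (266 of 10149), and quantile scaling 2 for TDP-43 in striatum (444 of 2333). Males alone gave 0 for m6A in cortex (81 of 9398), TDP-43 in striatum (3 of 2586) and TDP-43 in cortex (93 of 3741), and females alone 0 for m6A in cortex (85 of 9019) and TDP-43 in cortex (42 of 4311) and 2 for TDP-43 in striatum (342 of 2244). For TDP-43 in striatum 0 were called without the more intronic libraries (27 of 2532) or those yielding fewer than 10000 (451 of 2471), and for TDP-43 in cortex 0 with intronic share as a covariate (85 of 3904). In striatum that covariate also gave 1, but Shank2 (2.91, adjusted p = 0.0427) in place of Dlg4. Leaving out 1 library gave 2 to 3 for m6A in striatum, 1 for m6A in cortex, 0 to 3 for TDP-43 in striatum, 0 to 2 for TDP-43 in cortex and 1 to 3 for the ASO.

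Same-numbered libraries of the 2 groups in a comparison share only a number (correlations of their deviations between -0.457 and 0.460), and the replicate block gave 2, 1, 1, 0 and 2 of the 8 genes for m6A striatum, m6A cortex, TDP-43 striatum, TDP-43 cortex and the ASO, and 807, 539, 286, 127 and 1939 of all genes (938, 560, 317, 277 and 3064 without it).

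Among values called as reported or under the alternative, 6 changed sign: Dlgap1 TDP-43 in striatum with all listed clusters (1.08, adjusted p = 0.00113), Shank1 TDP-43 in cortex with p at 1e-10 or less (-0.44) and with all listed clusters (-0.24, adjusted p = 0.0329), Dlgap2 TDP-43 in cortex with all listed clusters (0.094), Dlgap1 after the ASO with p at 1e-10 or less (0.10, adjusted p = 0.732) and Dlg4 TDP-43 in NT striatum over cortex with p at 1e-10 or less (-1.10, adjusted p = 0.000146). A further 53 values changed sign with no call on either side, among them TDP-43 in striatum with the intronic share as a covariate for Shank3 (1.00), Dlgap3 (0.36), Dlgap1 (0.38) and Dlgap4 (0.44), as did 13 on leaving out 1 library. The cause was not tested.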
